A study of Homo sapiens with 9 samples.

Results

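The genes described here encode the collagens and the proteins that modify and fold them. They are the rows of the count table whose symbol is COL, a number, A and a number, together with the lysyl oxidases LOX and LOXL1 to LOXL4, the prolyl 4-hydroxylase subunits P4HA1 to P4HA3, the lysyl hydroxylases PLOD1 to PLOD3 and the chaperone SERPINH1. This rule took 56 of 19907 rows, 44 collagen genes and 12 genes of enzymes or the chaperone. The cells were HUES8, an established line of human embryonic stem cells differentiated towards definitive endoderm, the layer from which gut, liver and pancreas arise. Total RNA was sequenced. Every library was labelled wild type, and all cells received activin A at 100 ng/mL, with Wnt-3a at 50 ng/mL for the opening 2 days, in medium with 0.2% albumin free of fatty acids. The DE group had no inhibitor, the C75 group received C75, an inhibitor of fatty acid synthase, and the ETO group received ETO, an inhibitor of fatty acid oxidation, with 3 libraries in each group. No inhibitor dose, no timing of the inhibitor and no harvest day is given by the labels. A single cell line was used. The labels do not tell whether replicate libraries were grown as separate cultures; the p-values therefore reflect a spread between libraries that may be technical only.

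Collagens are trimers of chains built from glycine-X-Y repeats. In the endoplasmic reticulum, prolyl 4-hydroxylases stabilise the helix, lysyl hydroxylases prepare sites for cross-links and sugars, and SERPINH1 (HSP47) binds the folded trimer. Outside the cell, lysyl oxidases start the cross-links. Type IV collagen forms the network of basement membranes, on which epithelia such as endoderm rest, whereas the fibrillar collagens are best known from mesenchymal matrix.

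Library totals ran from 17379711 to 21510997 counts, and 15948 to 16472 genes had at least 1 count. All 6 definitive endoderm markers (SOX17, FOXA2, CXCR4, GATA6, CER1 and GATA4) were detected in every group. All 6 were higher in C75 and lower in ETO than in DE, and their summed level was 8902 to 9270 CPM (counts relative to library size, with TMM scaling) in DE, 14244 to 14605 CPM in C75 and 4447 to 4579 CPM in ETO, most of it CER1. Of 6 pluripotency markers 1 was higher and 5 were lower in C75, and 4 were higher and 2 lower in ETO. Their sum was 3047 to 3160 CPM in DE, 2714 to 2755 CPM in C75 and 3627 to 3719 CPM in ETO. In DE and C75 it was carried mostly by LIN28A and TDGF1. In ETO the highest mean was that of POU5F1, above LIN28A (1111 CPM) and TDGF1 (865 CPM). The sum hides larger differences of the core factors. POU5F1 had means of 295, 61.6 and 1139 CPM in DE, C75 and ETO, NANOG 55, 19.6 and 119 CPM, and SOX2 23, 3.38 and 87 CPM. The groups thus differed in their markers as well as in treatment. Beside the marker counts here and below stand 31.2% of all genes higher and 31.9% lower in C75, and 34.7% and 35.3% in ETO. In bulk RNA, fewer cells of a type and less RNA per cell cannot be told apart. The part of these marker differences in the collagen results was not tested.

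Of the 56 genes, 49 passed the filter on low counts and were tested, 38 of the collagen genes and 11 of the others. A gene was called at an adjusted p below 0.05 (edgeR's quasi-likelihood test, Benjamini-Hochberg over 14177 genes). In C75 against DE, 16 of the 49 were higher and 24 were lower, against 31.2% higher and 31.9% lower of all genes tested. In ETO against DE, 24 were higher and 16 were lower, against 34.7% and 35.3% of all genes. Both comparisons use the same DE libraries. In C75 against ETO, 19 were higher in C75 and 24 were lower, against 39.9% and 39.2% of all genes.

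Since most genes were called, calls of at least 2-fold were counted too. In C75, 4 genes were at least 2-fold higher than in DE (COL27A1, COL4A3, COL4A4 and LOX) and 11 were at least 2-fold lower, against 2.68% and 6.52% of all genes. In ETO, 12 were at least 2-fold higher than in DE and 3 at least 2-fold lower (COL23A1, COL9A2 and COL4A6), against 9.56% and 4.8% of all genes. Between the inhibitors, 9 were at least 2-fold higher and 15 at least 2-fold lower in C75 than in ETO, against 8.84% and 14.9% of all genes. The low-count filter used all 9 libraries, and COL24A1, COL5A3, COL6A3, COL8A1 and COL17A1 passed it only through their ETO counts. Each is among the 12 higher in ETO and the 15 lower in C75 than in ETO, and all but COL24A1 among the 11. Without the 2-fold rule, each is among the 24 higher in ETO than in DE and the 24 lower in C75 than in ETO. All but COL24A1 are among the 24 lower in C75 than in DE. All of these counts are therefore partly set by the filter. With the DE and C75 libraries alone, 43 genes were tested, 20 were called lower in C75 and 7 were at least 2-fold lower. The median absolute log2 difference of the 49 genes was 0.452 in C75 against DE, 0.627 in ETO against DE and 0.898 between the inhibitors, beside 0.272, 0.335 and 0.486 over all genes tested. The signed medians were -0.18, 0.2 and -0.22, beside 0.00, 0.00 and 0.01 over all genes.

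**Figure D1:**
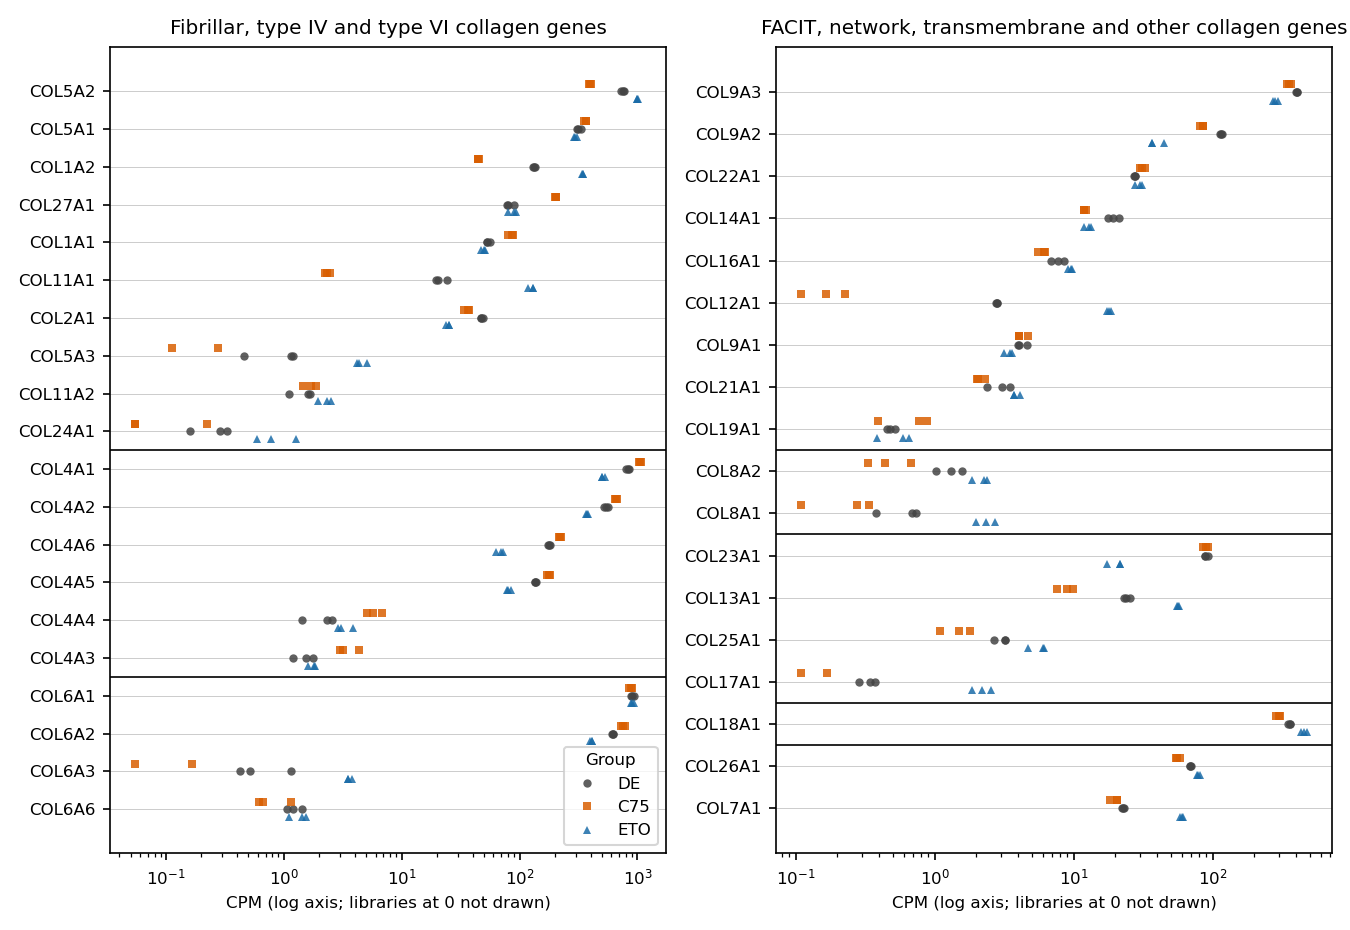
Level of each tested collagen gene in every library, in CPM on a log axis, with DE as circles, C75 as squares and ETO as triangles; libraries at 0 (1 C75 library each for COL5A3, COL6A3 and COL17A1) are not drawn. COL12A1 and COL11A1 show the widest spacing between groups, with C75 on the left and ETO on the right, whereas the 4 well expressed type IV genes lie in the opposite order.

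The chains of type IV collagen were higher in C75 than in DE at all 6 genes, and 4 of the 6 were lower in ETO. Of all genes tested, 31.2% were higher in C75 and 35.3% were lower in ETO. COL4A1 and COL4A2, which make the most widespread basement membrane trimer, stand head to head on chromosome 13 (GRCh38), and in RefSeq (GRCh38.p14) their start sites are separated by 126 bases. That interval, on the plus strand at chr13:110307158-110307283 and read from COL4A1 towards COL4A2, is shown because the pair moved together in both comparisons; capitals mark a CCAAT and a GGGCGG.
COL4A1 to COL4A2: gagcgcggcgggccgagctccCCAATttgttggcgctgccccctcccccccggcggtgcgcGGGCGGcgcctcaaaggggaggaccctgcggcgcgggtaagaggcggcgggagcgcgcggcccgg
Of all 14896 promoters searched (the 250 bases before each RefSeq start, both strands), 34.5% hold CCAAT and 56.9% hold GGGCGG. Among the 42 of the 56 genes with an entry the shares were 28.6% and 54.8%. A match is a description of the letters, not evidence of binding. The start sites of COL4A5 and COL4A6 lie 379 bases apart and those of COL4A3 and COL4A4 lie 418 bases apart.

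The levels of COL4A1 were 849, 793 and 839 CPM in DE, 1066, 1060 and 1035 CPM in C75 and 502, 526 and 503 CPM in ETO. Every C75 library lay above every DE library, and every ETO library lay below. The difference of COL4A1 from DE was log2 0.35 in C75 (SE 0.031, adjusted p = 6.4e-12) and log2 -0.7 in ETO (SE 0.031, adjusted p = 3.3e-20). For COL4A2 the libraries held 564, 517 and 537 CPM in DE, 675, 648 and 661 CPM in C75 and 371, 369 and 377 CPM in ETO. The order of the groups was that of COL4A1, with no overlap. COL4A2 differed from DE by log2 0.29 in C75 (SE 0.032, adjusted p = 1e-09) and by log2 -0.54 in ETO (SE 0.033, adjusted p = 1.8e-16).

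COL4A5 and COL4A6, X-linked chains that join in the basement membranes of smooth muscle and some epithelia, showed the same order. COL4A5 measured 139, 134 and 136 CPM in DE, 176, 181 and 171 CPM in C75 and 79.4, 84.4 and 78.8 CPM in ETO. COL4A6 stood at 179, 175 and 180 CPM in DE, 225, 219 and 214 CPM in C75 and 63.6, 72.4 and 69.8 CPM in ETO. For both genes the 3 groups did not overlap. COL4A5 was 1.29-fold higher than DE in C75, log2 0.36 (SE 0.037, adjusted p = 2.1e-10), and 1.69-fold lower in ETO, log2 -0.75 (SE 0.039, adjusted p = 2.7e-18). Relative to DE, COL4A6 was 1.23-fold higher in C75, log2 0.3 (SE 0.038, adjusted p = 2.8e-08), and 2.6-fold lower in ETO, log2 -1.38 (SE 0.042, adjusted p = 3.7e-25). COL4A6 was the type IV gene with the largest difference in ETO.

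COL4A3 and COL4A4, which with COL4A5 build the collagen of the kidney glomerulus, were low, with means of 0.644 TPM and 0.819 TPM in DE (TPM are counts per base of gene length, scaled to a common total, and are used to compare genes). The levels of COL4A3 were 1.76, 1.2 and 1.53 CPM in DE, 3.16, 4.35 and 2.97 CPM in C75 and 1.59, 1.81 and 1.82 CPM in ETO. For COL4A4 the libraries held 1.42, 2.57 and 2.33 CPM in DE, 6.76, 5.06 and 5.66 CPM in C75 and 3.86, 2.86 and 3.08 CPM in ETO. C75 lay above DE for both genes without overlap. COL4A3 was 2.31-fold higher in C75 than in DE, a log2 difference of 1.21 (SE 0.23, adjusted p = 2.3e-05). COL4A4 was 2.79-fold higher in C75 than in DE, a log2 difference of 1.48 (SE 0.2, adjusted p = 5.1e-08). In ETO, COL4A4 was called higher (log2 0.66, adjusted p = 0.006), a call lost without DE replicate 1 (0.42, adjusted p = 0.085) or ETO replicate 1 (0.51, adjusted p = 0.058), and COL4A3 was not called (log2 0.2, adjusted p = 0.49). Summed per length, the 6 type IV genes reached 452 ± 17.5 TPM in DE, 534 ± 12.8 TPM in C75 and 272 ± 5.33 TPM in ETO (SD, n = 3). Extraembryonic endoderm also makes much type IV collagen. Of 5 markers of parietal or visceral endoderm 4 were tested, with 1 higher and 1 lower in C75 and 1 higher and 2 lower in ETO. Their sum was 30.6 to 34.1 CPM in DE, 58.3 to 60.6 CPM in C75 and 8.31 to 10.9 CPM in ETO, and TTR and AFP had no count in C75. The higher sum in C75 was THBD (means of 16.4 CPM in DE, 44 CPM in C75 and 4.45 CPM in ETO), while HNF4A was at 15.4, 15.3 and 2.59 CPM and SOX7 was not called in either comparison with DE. The 1 lower in C75 and the 1 higher in ETO were both AFP (means of 0.229 CPM in DE and 1.72 CPM in ETO). AFP passed the low-count filter only through ETO, so these calls are partly set by the filter. The part of these markers in the type IV result was not tested.

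Among the 10 tested fibrillar collagen genes, C75 had 3 higher and 5 lower than DE, while 6 were higher and 3 lower in ETO. Over all genes tested the shares were 31.2% higher and 31.9% lower in C75, and 34.7% and 35.3% in ETO. The 3 higher in C75 and the 3 lower in ETO are near those shares. COL5A3 and COL24A1, both among the 6 higher in ETO, passed the low-count filter only through their ETO counts. COL5A3 is also among the 5 lower in C75. The 6 and the 5 are therefore partly set by the filter. Type I collagen, the main collagen of bone and skin, is normally a trimer of COL1A1 chains with a single COL1A2 chain, and its chains moved apart. COL1A1 measured 56.1, 53 and 53.3 CPM in DE, 86.9, 79.7 and 87.5 CPM in C75 and 51.3, 47.2 and 50.3 CPM in ETO. COL1A2 stood at 131, 134 and 132 CPM in DE, 44.7, 45.4 and 44.3 CPM in C75 and 343, 344 and 341 CPM in ETO. COL1A1 was higher in C75 than in the other groups, whereas COL1A2 was lowest in C75 and highest in ETO, with no overlap. COL1A2 was 2.95-fold lower than DE in C75, log2 -1.56 (SE 0.04, adjusted p = 1.6e-26), and 2.59-fold higher in ETO, log2 1.37 (SE 0.033, adjusted p = 6.7e-28). COL1A1 was higher in C75 by log2 0.64 (SE 0.049, adjusted p = 1.4e-13). Its small fall in ETO (-0.13, adjusted p = 0.026) was no longer called with upper-quartile scaling (-0.11, adjusted p = 0.059), a mean of at least 5 CPM (-0.1, adjusted p = 0.085), a correction for GC content and gene length (-0.03, adjusted p = 0.58) or DESeq2 (-0.12, adjusted p = 0.077), nor when DE replicate 1 was left out (-0.1, adjusted p = 0.11) or ETO replicate 2 (-0.09, adjusted p = 0.13).

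The per-length ratio of COL1A1 to COL1A2 was 0.489, 0.449 and 0.458 in DE, 2.21, 1.99 and 2.24 in C75 and 0.17, 0.156 and 0.168 in ETO. COL1A2 was thus the more abundant transcript per base in DE and ETO, and COL1A1 in C75. Each pair of groups gave p = 0.1 in a two-sided exact permutation test, the smallest p that 3 against 3 libraries allow. Over the 15 ratio tests made, this is an adjusted p of 0.107, so no ratio can pass the threshold in this design. COL3A1, the partner of type I in soft tissues, had at most 5 counts in a library and none in C75, where 3 counts in the 3 libraries together would be 0.0536 CPM.

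**Figure D2:**
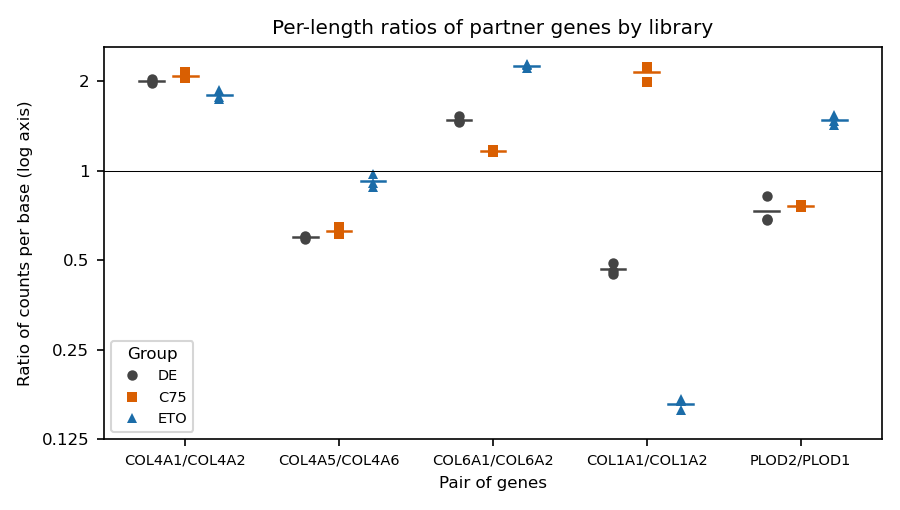
Ratio of counts per base between partner genes in each library, on a log axis, with the group mean as a bar; DE circles, C75 squares, ETO triangles. COL1A1 to COL1A2 covers the widest range, from a mean of 0.164 in ETO to 2.15 in C75, and COL4A1 to COL4A2 the narrowest, from 1.79 to 2.09.

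COL11A1, a chain of the type XI collagen that sets fibril diameter in cartilage, differed strongly. Its RefSeq promoter (chr1:103108523-103108772, minus strand, GRCh38.p14) and that of the fibril-associated COL12A1 (chr6:75206054-75206303, minus strand), are shown since these genes had the largest differences between inhibitors, with CCAAT and GGGCGG or their reverse complements in capitals.
COL11A1: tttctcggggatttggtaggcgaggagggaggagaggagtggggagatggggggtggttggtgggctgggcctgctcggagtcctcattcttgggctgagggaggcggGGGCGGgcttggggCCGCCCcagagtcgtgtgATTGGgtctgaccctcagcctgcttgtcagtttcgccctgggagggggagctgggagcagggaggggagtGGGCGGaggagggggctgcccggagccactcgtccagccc
COL12A1: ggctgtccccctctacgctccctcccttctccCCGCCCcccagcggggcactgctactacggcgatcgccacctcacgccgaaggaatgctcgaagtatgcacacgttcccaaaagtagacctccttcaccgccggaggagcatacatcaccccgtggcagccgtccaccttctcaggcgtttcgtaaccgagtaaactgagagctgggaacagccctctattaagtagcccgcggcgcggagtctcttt
COL11A1 holds 1 CCAAT and 3 GGGCGG matches, and COL12A1 holds 1 GGGCGG match. The levels of COL11A1 were 20.4, 19.7 and 24.1 CPM in DE, 2.48, 2.31 and 2.25 CPM in C75 and 119, 130 and 129 CPM in ETO. The ETO libraries were the highest and the C75 libraries the lowest, far apart from DE on both sides. Relative to DE, COL11A1 was 9.11-fold lower in C75, log2 -3.19 (SE 0.12, adjusted p = 2.6e-22), and 5.88-fold higher in ETO, log2 2.56 (SE 0.058, adjusted p = 1e-28). Between the inhibitors the difference was 53.5-fold. Its partner COL11A2 was at 1.46 ± 0.304 CPM in DE, 1.68 ± 0.204 CPM in C75 and 2.26 ± 0.274 CPM in ETO (SD, n = 3). COL11A2 was called higher in ETO (log2 0.63, adjusted p = 0.02), but not without DE replicate 3 (0.46, adjusted p = 0.12) or ETO replicate 1 (0.54, adjusted p = 0.083).

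Type V collagen, which nucleates fibrils, also had chains that moved apart. For COL5A2 the libraries held 759, 727 and 764 CPM in DE, 393, 407 and 389 CPM in C75 and 990, 1020 and 997 CPM in ETO. COL5A2 was lowest in C75 and highest in ETO without overlap, and per length it was the most abundant fibrillar chain in all groups (395 TPM in DE, 196 TPM in C75 and 534 TPM in ETO). The difference of COL5A2 from DE was log2 -0.92 in C75 (SE 0.031, adjusted p = 2.8e-23) and log2 0.42 in ETO (SE 0.03, adjusted p = 1.5e-14). COL5A1 measured 330, 307 and 314 CPM in DE, 368, 354 and 366 CPM in C75 and 297, 292 and 309 CPM in ETO. COL5A1 was higher in C75 (log2 0.19, SE 0.034, adjusted p = 7.6e-06), and its ETO libraries overlapped those of DE. The ETO difference of COL5A1 (-0.08, adjusted p = 0.03) was lost with 5 of the 8 alternatives that keep all the libraries of the groups compared, median-of-ratios scaling among them (-0.07, adjusted p = 0.063), and without DE replicate 1 (-0.05, adjusted p = 0.15), ETO replicate 1 (-0.08, adjusted p = 0.09) or ETO replicate 2 (-0.07, adjusted p = 0.12). COL5A3 stood at 1.19, 0.457 and 1.16 CPM in DE, 0.113, 0 and 0.275 CPM in C75 and 5.09, 4.32 and 4.18 CPM in ETO. COL5A3, the rarest chain of type V, was lowest in C75, where 1 library had no count, and highest in ETO. COL5A3 differed from DE by log2 -2.82 in C75 (SE 0.54, adjusted p = 3.4e-05) and by log2 2.25 in ETO (SE 0.27, adjusted p = 4.4e-09). Its C75 libraries held 7 counts in all, and without C75 replicate 3 the difference from DE was -3.96 (adjusted p = 2e-05). By summed counts DE exceeded C75 7.4-fold, with a 95% counting interval of 3.36 to 19.3.

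The levels of COL27A1 were 89, 78.2 and 80.5 CPM in DE, 205, 200 and 203 CPM in C75 and 80.4, 89.7 and 93.8 CPM in ETO. COL27A1, a fibrillar collagen of cartilage, was higher in C75 than in either other group, and its DE and ETO libraries overlapped. COL27A1 was 2.45-fold higher in C75 than in DE, a log2 difference of 1.3 (SE 0.046, adjusted p = 1.7e-22). In ETO it was not called (0.09, adjusted p = 0.12), though it was called with a mean of at least 5 CPM (0.12, adjusted p = 0.035), with the correction for GC content and length (0.11, adjusted p = 0.022), and without DE replicate 1 (0.14, adjusted p = 0.013) or ETO replicate 1 (0.15, adjusted p = 0.011). For COL2A1 the libraries held 49, 46.8 and 47.4 CPM in DE, 37, 33.6 and 36.4 CPM in C75 and 25.1, 23.7 and 25.1 CPM in ETO. COL2A1, the main cartilage collagen, was lower in both inhibitor groups, with no overlap. Relative to DE, COL2A1 was 1.34-fold lower in C75, log2 -0.42 (SE 0.057, adjusted p = 8.1e-08), and 1.94-fold lower in ETO, log2 -0.96 (SE 0.059, adjusted p = 3e-16). COL24A1 was at the edge of detection. COL24A1 measured 0.332, 0.286 and 0.159 CPM in DE, 0.225, 0.055 and 0.0549 CPM in C75 and 0.59, 1.26 and 0.771 CPM in ETO. COL24A1 had 15 counts over the DE libraries, 6 in C75 and 52 in ETO, and was called in ETO (log2 1.71, SE 0.47, adjusted p = 0.0018) but not in C75 (-1.19, adjusted p = 0.17).

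Summed per length, the fibrillar genes reached 636 ± 20.1 TPM in DE, 436 ± 5.26 TPM in C75 and 881 ± 10.2 TPM in ETO (SD, n = 3). Markers of mesenchyme and of mesoderm differed between the same groups. Of 8 fibroblast or mesenchyme markers 5 were tested, of which 4 were lower in C75 and 5 higher in ETO, with a summed level of 308 to 338 CPM in DE, 254 to 262 CPM in C75 and 721 to 759 CPM in ETO. Most of that sum was TAGLN, an actin-binding protein that other cells also express, and DCN, which defines many fibroblasts, had no count in any library (3 counts over a group would be 0.0511 to 0.0536 CPM). PRRX1 had no count in DE and means of 0.0183 CPM in C75 and 0.0335 CPM in ETO, below 3 counts over a group. POSTN (means of 0.257, 0.0188 and 1.62 CPM in DE, C75 and ETO) and ACTA2 (0.0878, 0.0549 and 0.868 CPM) passed the low-count filter only through ETO. Both are among the 5 markers higher in ETO, and POSTN is among the 4 lower in C75, so these counts are partly set by the filter. Of 12 primitive streak and mesoderm markers 9 were tested, of which 1 was higher and 5 lower in C75, and 7 higher and 1 lower in ETO. Their sum was 803 to 816 CPM in DE, 855 to 910 CPM in C75 and 1204 to 1235 CPM in ETO, most of it MIXL1, the 1 marker called higher in C75. MSGN1 and MEOX1 had no count in any group, and FOXF1 had none in C75. Of 6 amnion or trophoblast markers 4 were tested, with 3 lower in C75 and 1 higher and 2 lower in ETO, a sum of 34.3 to 38.5 CPM in DE, 20.1 to 22.8 CPM in C75 and 25.6 to 27.9 CPM in ETO, most of it GATA3, and no count for CGA. The part of these markers in the fibrillar collagen results was not tested.

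Of the 9 tested fibril-associated (FACIT) collagens, which lie on the surface of fibrils, 1 was higher and 6 lower in C75, and 2 were higher and 3 lower in ETO. Shares over all genes were 31.2% higher and 31.9% lower in C75, and 34.7% and 35.3% in ETO. The 3 lower in ETO are near that share. COL12A1, found on type I fibrils in tendon and fascia, spanned the widest range of all 49 genes. COL12A1 stood at 2.8, 2.8 and 2.75 CPM in DE, 0.225, 0.11 and 0.165 CPM in C75 and 18.5, 17.9 and 17.3 CPM in ETO. Its C75 libraries held 4, 2 and 3 counts, so that the ETO and C75 groups stood at 1077 and 9 counts. The difference of COL12A1 from DE was log2 -4.01 in C75 (SE 0.31, adjusted p = 2e-13) and log2 2.68 in ETO (SE 0.12, adjusted p = 3.6e-20). From the summed counts, DE was 16.7-fold above C75, with a 95% interval of 8.6 to 37.3 that covers counting error only.

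The cartilage FACIT type IX has 3 chains. The levels of COL9A2 were 117, 113 and 115 CPM in DE, 81.1, 85.4 and 85.8 CPM in C75 and 36.5, 36.6 and 44.5 CPM in ETO. For COL9A3 the libraries held 395, 405 and 401 CPM in DE, 354, 344 and 364 CPM in C75 and 273, 282 and 293 CPM in ETO. Both genes were highest in DE and lowest in ETO, and neither had groups that overlapped. COL9A2 differed from DE by log2 -0.45 in C75 (SE 0.048, adjusted p = 6.7e-10) and by log2 -1.56 in ETO (SE 0.053, adjusted p = 9.8e-24). COL9A3 was 1.13-fold lower than DE in C75, log2 -0.18 (SE 0.033, adjusted p = 1.9e-05), and 1.42-fold lower in ETO, log2 -0.5 (SE 0.033, adjusted p = 1.7e-15). The direct difference between inhibitors at COL9A3 (log2 0.32, adjusted p = 7.8e-11) turned to -0.04 (adjusted p = 0.2) with the correction for GC content and gene length. COL9A1 was low, at 4.21 ± 0.363 CPM in DE, 4.27 ± 0.401 CPM in C75 and 3.4 ± 0.233 CPM in ETO (SD, n = 3), and was called in neither comparison with DE. Markers of chondrocytes and notochord did not share 1 direction. Of 6 such markers 5 were tested, with 2 higher and 1 lower in C75 and 3 higher and 1 lower in ETO, and their sum was 117 to 120 CPM in DE, 103 to 109 CPM in C75 and 71.6 to 77.7 CPM in ETO. Most of that sum was MATN3 (means of 108, 82.5 and 55.9 CPM in DE, C75 and ETO). SOX9 (0.847 and 5.39 CPM in DE and ETO), ACAN (1.72 and 4.9 CPM) and SHH (6.39 and 8.18 CPM) were called higher in ETO, against the direction of the sum.

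COL14A1 measured 21.3, 19.3 and 17.7 CPM in DE, 12.3, 11.8 and 11.9 CPM in C75 and 11.9, 13 and 13.4 CPM in ETO. COL14A1, a FACIT of skin and tendon, was lower in both inhibitor groups, which overlapped each other. Relative to DE, COL14A1 was 1.62-fold lower in C75, log2 -0.7 (SE 0.088, adjusted p = 1.9e-08), and 1.53-fold lower in ETO, log2 -0.61 (SE 0.085, adjusted p = 1e-07). COL16A1 stood at 7.74, 6.91 and 8.57 CPM in DE, 5.58, 6.11 and 6.26 CPM in C75 and 9.13, 9.74 and 9.64 CPM in ETO. COL16A1 was lowest in C75 and highest in ETO. The difference of COL16A1 from DE was log2 -0.37 in C75 (SE 0.12, adjusted p = 0.0079) and log2 0.29 in ETO (SE 0.11, adjusted p = 0.02). The ETO call of COL16A1 was lost without DE replicate 2 (0.23, adjusted p = 0.093) or ETO replicate 2 (0.27, adjusted p = 0.054).

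The levels of COL22A1 were 27.5, 27.3 and 27.7 CPM in DE, 30.8, 32.5 and 29.8 CPM in C75 and 27.5, 30.8 and 30.2 CPM in ETO. COL22A1, a collagen of tissue junctions, lay slightly higher in C75 than in DE. That call (log2 0.17, adjusted p = 0.021) disappeared under upper-quartile scaling (0.12, adjusted p = 0.097), the GC and length correction (0.1, adjusted p = 0.17) and DESeq2 (0.17, adjusted p = 0.052), and without DE replicate 2 (0.16, adjusted p = 0.052), DE replicate 3 (0.16, adjusted p = 0.061), C75 replicate 1 (0.16, adjusted p = 0.059) or C75 replicate 2 (0.13, adjusted p = 0.14). COL21A1 was at 2.98 ± 0.539 CPM in DE, 2.13 ± 0.16 CPM in C75 and 3.86 ± 0.233 CPM in ETO (SD, n = 3). Its C75 call (-0.5, adjusted p = 0.032) was lost with the GC and length correction (-0.44, adjusted p = 0.051) and DESeq2 (-0.5, adjusted p = 0.062), and without DE replicate 1 (-0.37, adjusted p = 0.17), DE replicate 3 (-0.5, adjusted p = 0.061), C75 replicate 2 (-0.48, adjusted p = 0.071) or C75 replicate 3 (-0.48, adjusted p = 0.071). Without DE replicate 1, COL21A1 was instead called higher in ETO (0.49, adjusted p = 0.035, against 0.37 and 0.067 with it). COL19A1 was at 0.485 ± 0.0335, 0.681 ± 0.254 and 0.543 ± 0.14 CPM in DE, C75 and ETO (SD, n = 3) and was not called.

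Type VI collagen, which forms beaded filaments next to basement membranes and binds cells to matrix, held the collagen gene most abundant per length. COL6A1 reached 666 ± 25 TPM in DE, 601 ± 12.9 TPM in C75 and 674 ± 19.1 TPM in ETO (SD, n = 3), and its mean over all libraries exceeded that of 99.1% of the genes detected. For COL6A1 the libraries held 935, 905 and 882 CPM in DE, 878, 845 and 897 CPM in C75 and 902, 888 and 933 CPM in ETO. All 3 groups overlapped in CPM. COL6A1 was not called in C75, at a log2 difference from DE of -0.06 (SE 0.031, adjusted p = 0.12) and was not called in ETO, at a log2 difference from DE of 0.00 (SE 0.031, adjusted p = 1). COL6A1 depended on the scaling. With upper-quartile scaling it was lower in C75 (-0.1, adjusted p = 0.0042), and with the GC and length correction it was lower in C75 (-0.16, adjusted p = 1e-06) and higher in ETO (0.23, adjusted p = 4.4e-10). It was also called lower in C75 without DE replicate 3 (-0.09, adjusted p = 0.022) or C75 replicate 3 (-0.09, adjusted p = 0.024).

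COL6A2 measured 615, 622 and 607 CPM in DE, 755, 729 and 781 CPM in C75 and 411, 392 and 414 CPM in ETO. COL6A2, the second chain of the same trimer, was highest in C75 and lowest in ETO, with no overlap. COL6A2 was 1.23-fold higher than DE in C75, log2 0.3 (SE 0.031, adjusted p = 4.8e-10), and 1.52-fold lower in ETO, log2 -0.6 (SE 0.032, adjusted p = 3.9e-18). The per-length ratio of COL6A1 to COL6A2 was 1.49 ± 0.0386 in DE, 1.17 ± 0.0075 in C75 and 2.26 ± 0.0378 in ETO (SD, n = 3; exact permutation p = 0.1 for each pair of groups, adjusted p = 0.107). COL6A3, the longest chain of type VI, was at low counts. COL6A3 stood at 0.427, 0.514 and 1.16 CPM in DE, 0, 0.055 and 0.165 CPM in C75 and 3.82, 3.47 and 3.47 CPM in ETO. COL6A3 was lowest in C75, with 4 counts in all and 1 library at 0, and highest in ETO. Relative to DE, COL6A3 was 8.75-fold lower in C75, log2 -3.13 (SE 0.64, adjusted p = 8.3e-05), and 5.11-fold higher in ETO, log2 2.35 (SE 0.29, adjusted p = 1e-08). The C75 value rests on 4 counts: without C75 replicate 3 it was -4.37 (adjusted p = 8e-05), and from the summed counts DE was 9.42-fold above C75, with a 95% interval of 3.41 to 36.2 for counting error only. COL6A6 was at 1.23 ± 0.185, 0.811 ± 0.299 and 1.36 ± 0.228 CPM in DE, C75 and ETO (SD, n = 3), and was not called against DE, except without C75 replicate 2 (-0.95, adjusted p = 0.03, against -0.6 with it).

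The COL4A1 to COL4A2 ratio per length was 2.01 ± 0.0373 in DE, 2.09 ± 0.0483 in C75 and 1.79 ± 0.0644 in ETO (SD, n = 3). That of COL4A5 to COL4A6 was 0.598 ± 0.00788, 0.627 ± 0.0167 and 0.924 ± 0.048 in the same order (SD, n = 3). Each comparison of groups gave an exact permutation p of 0.1 (adjusted p = 0.107). The ratio of COL4A1 to COL4A2 differed by at most 0.22 on the log2 scale between any 2 groups, whereas that of COL1A1 to COL1A2 differed by up to 3.71.

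The network-forming type VIII collagens, known from vessel walls and the corneal endothelium, were low in all groups. The levels of COL8A1 were 0.38, 0.686 and 0.741 CPM in DE, 0.338, 0.11 and 0.275 CPM in C75 and 2.73, 2.36 and 1.98 CPM in ETO. For COL8A2 the libraries held 1.57, 1.03 and 1.32 CPM in DE, 0.676, 0.33 and 0.439 CPM in C75 and 1.86, 2.26 and 2.37 CPM in ETO. Both were lowest in C75 and highest in ETO without overlap. The difference of COL8A1 from DE was log2 -1.28 in C75 (SE 0.49, adjusted p = 0.023) and log2 1.99 in ETO (SE 0.31, adjusted p = 8e-07). COL8A2 differed from DE by log2 -1.44 in C75 (SE 0.35, adjusted p = 0.00057) and by log2 0.71 in ETO (SE 0.26, adjusted p = 0.016). The C75 call of COL8A1 was lost without DE replicate 2 (-1.18, adjusted p = 0.066), DE replicate 3 (-1.11, adjusted p = 0.089) or C75 replicate 2 (-0.95, adjusted p = 0.11). The ETO call of COL8A2 was lost without DE replicate 2 (0.58, adjusted p = 0.075) or ETO replicate 3 (0.64, adjusted p = 0.055).

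The transmembrane collagens are anchored in the cell surface and are shed from it. COL23A1 measured 88.2, 92.4 and 87.8 CPM in DE, 85.8, 89.1 and 93 CPM in C75 and 17.4, 21.7 and 21.4 CPM in ETO. The DE and C75 libraries of COL23A1 overlapped, and every ETO library was far lower. COL23A1 was not called in C75, at a log2 difference from DE of 0.00 (SE 0.05, adjusted p = 0.98) and had a log2 difference from DE of -2.15 in ETO (SE 0.06, adjusted p = 3.7e-26). With the GC and length correction it was also called in C75 (-0.11, adjusted p = 0.039). COL13A1 stood at 23.2, 23.9 and 25.5 CPM in DE, 8.96, 7.59 and 9.94 CPM in C75 and 55.3, 57.2 and 56.5 CPM in ETO. COL13A1, a collagen of cell adhesions and the neuromuscular junction, was lowest in C75 and highest in ETO. Relative to DE, COL13A1 was 2.74-fold lower in C75, log2 -1.45 (SE 0.085, adjusted p = 1.5e-16), and 2.33-fold higher in ETO, log2 1.22 (SE 0.064, adjusted p = 2.9e-18).

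The levels of COL25A1 were 3.23, 2.69 and 3.23 CPM in DE, 1.8, 1.49 and 1.1 CPM in C75 and 6, 4.67 and 6.17 CPM in ETO. COL25A1, known from the innervation of muscle by motor neurons, was lowest in C75 and highest in ETO, with no overlap. The difference of COL25A1 from DE was log2 -1.06 in C75 (SE 0.22, adjusted p = 9e-05) and log2 0.87 in ETO (SE 0.17, adjusted p = 3.6e-05). For COL17A1 the libraries held 0.285, 0.343 and 0.37 CPM in DE, 0.169, 0.11 and 0 CPM in C75 and 2.54, 1.86 and 2.2 CPM in ETO. COL17A1, a collagen of hemidesmosomes, had 19 counts in the DE libraries together, 5 in C75 and 133 in ETO. COL17A1 differed from DE by log2 -1.77 in C75 (SE 0.69, adjusted p = 0.026) and by log2 2.71 in ETO (SE 0.35, adjusted p = 2.9e-08). Its C75 call was lost without DE replicate 2 (-1.75, adjusted p = 0.05), DE replicate 3 (-1.7, adjusted p = 0.062) or C75 replicate 3 (-1.23, adjusted p = 0.13), and the value was -2.47 (adjusted p = 0.017) without C75 replicate 1. By summed counts DE exceeded C75 3.58-fold, with a 95% counting interval of 1.29 to 12.3.

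COL18A1, the basement membrane collagen from which endostatin is cut, differed from type IV in direction. COL18A1 measured 358, 347 and 363 CPM in DE, 299, 284 and 303 CPM in C75 and 456, 430 and 475 CPM in ETO. It was lowest in C75 and highest in ETO without overlap. COL18A1 was 1.21-fold lower than DE in C75, log2 -0.27 (SE 0.036, adjusted p = 5.2e-08), and 1.27-fold higher in ETO, log2 0.35 (SE 0.035, adjusted p = 8.9e-11). Of its exon length, 16.43% overlaps exons of SLC19A1 on the opposite strand, and no source used here says whether the counting used strand, so the reads of the pair cannot be told apart there.

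COL7A1 stood at 22.9, 22.2 and 22.5 CPM in DE, 20.5, 18.4 and 20.5 CPM in C75 and 58.3, 60.2 and 61.6 CPM in ETO. COL7A1, which forms the anchoring fibrils below basement membranes, was higher in every ETO library. Relative to DE, COL7A1 was 1.14-fold lower in C75, log2 -0.19 (SE 0.069, adjusted p = 0.019), and 2.66-fold higher in ETO, log2 1.41 (SE 0.059, adjusted p = 4.5e-21). Its C75 call was lost without DE replicate 1 (-0.17, adjusted p = 0.053) or C75 replicate 2 (-0.15, adjusted p = 0.084). The levels of COL26A1 were 68.3, 68.7 and 69.8 CPM in DE, 55.6, 54.6 and 57.8 CPM in C75 and 77, 78.2 and 81.6 CPM in ETO. COL26A1 was lowest in C75 and highest in ETO, with no overlap. The difference of COL26A1 from DE was log2 -0.3 in C75 (SE 0.046, adjusted p = 7.8e-07) and log2 0.19 in ETO (SE 0.043, adjusted p = 0.00018).

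The genes that failed the filter had at most 13 counts in any library. The highest count was 5 for COL3A1, 7 for COL6A5, 4 for COL10A1, 13 for COL15A1, 12 for COL20A1, 11 for COL28A1 and 3 for P4HA3. P4HA3 had no count in C75, which allows up to 0.0536 CPM over the group, and COL10A1 had 2 counts in DE.

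Summed over all 44 collagen genes, the level was 5765 ± 104 CPM in DE, 5846 ± 75.3 CPM in C75 and 5377 ± 77.0 CPM in ETO (SD, n = 3). Per length it was 3035 ± 63.6, 2749 ± 26.2 and 2831 ± 56.1 TPM. The classes took different shares of this pool in the 3 groups. Fibrillar genes held 21.0 ± 0.344% of the collagen TPM in DE, 15.9 ± 0.274% in C75 and 31.1 ± 0.517% in ETO (SD, n = 3). Type IV genes held 14.9 ± 0.316%, 19.4 ± 0.536% and 9.63 ± 0.27% in the same order. Type VI genes held 36.7 ± 0.604%, 40.6 ± 0.601% and 34.4 ± 0.532%, and FACIT genes 15.2 ± 0.242%, 13.4 ± 0.126% and 10.7 ± 0.272%.

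**Figure D3:**
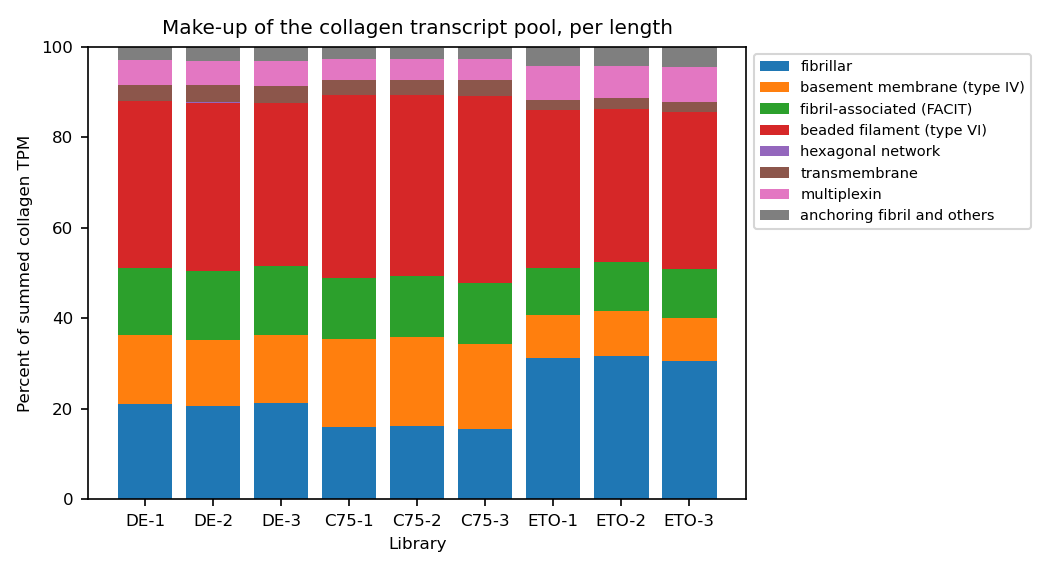
Share of each collagen class in the summed TPM of all collagen genes, in percent, as 1 stacked bar per library. The fibrillar share is 30.6 to 31.7% in the ETO libraries against 15.6 to 16.1% in C75, and the type IV share is 9.4 to 9.93% in ETO against 18.8 to 19.8% in C75.

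In DE the order of collagen genes per length began with COL6A1 (666 ± 25 TPM), COL6A2 (448 ± 6.61 TPM), COL5A2 (395 ± 12.3 TPM), COL9A3 (324 ± 1.84 TPM), COL4A1 (220 ± 9.42 TPM) and COL18A1 (164 ± 4.41 TPM; SD, n = 3). COL5A1 (111 ± 5.18 TPM), COL4A2 (110 ± 5.79 TPM) and COL9A2 (107 ± 2.49 TPM) followed and did not differ beyond their spread. In C75, COL5A2 (196 ± 6.28 TPM) stood below COL9A3 (269 ± 4.97 TPM) and COL4A1 (263 ± 6.49 TPM), which were within their spread of each other. In ETO, COL5A2 (534 ± 7.64 TPM) stood above COL6A2 (299 ± 9.42 TPM). The order depends on the lengths, which are merged exons of all annotated transcripts (14738 bases for COL4A1, 19293 for COL4A2 and 5343 for COL6A1). By counts, COL4A1 had means of 827 CPM in DE and 1054 CPM in C75, beside 908 and 873 CPM for COL6A1.

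Among the 5 lysyl oxidases, C75 had 2 higher and 2 lower than DE, and 4 were higher and 1 lower in ETO. All genes tested had 31.2% higher and 31.9% lower in C75, and 34.7% and 35.3% in ETO. With 5 genes, the C75 counts are near those shares and are no result about the class. LOX, P4HA1 and PLOD2 are known targets of the hypoxia-inducible factors, which bind elements with the core ACGTG or GCGTG, so the 250 bases before the RefSeq start (GRCh38.p14, all 5′ to 3′ on the gene's strand) are shown for LOX (chr5:122078260-122078509, minus), P4HA1 (chr10:73096867-73097116, minus), PLOD2 (chr3:146161185-146161434, minus) and, as one without a match, LOXL1 (chr15:73926212-73926461, plus). Capitals mark either core or its reverse complement.
LOX: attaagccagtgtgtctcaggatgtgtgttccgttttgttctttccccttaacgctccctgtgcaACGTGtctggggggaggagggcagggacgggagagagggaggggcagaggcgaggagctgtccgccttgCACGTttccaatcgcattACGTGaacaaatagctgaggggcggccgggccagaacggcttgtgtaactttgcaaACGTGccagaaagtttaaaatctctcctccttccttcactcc
P4HA1: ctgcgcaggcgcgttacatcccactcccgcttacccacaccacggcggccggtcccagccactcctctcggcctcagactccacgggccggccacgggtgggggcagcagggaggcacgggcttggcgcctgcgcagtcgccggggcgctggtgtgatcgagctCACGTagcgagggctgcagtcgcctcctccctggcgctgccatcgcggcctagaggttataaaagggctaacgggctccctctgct
PLOD2: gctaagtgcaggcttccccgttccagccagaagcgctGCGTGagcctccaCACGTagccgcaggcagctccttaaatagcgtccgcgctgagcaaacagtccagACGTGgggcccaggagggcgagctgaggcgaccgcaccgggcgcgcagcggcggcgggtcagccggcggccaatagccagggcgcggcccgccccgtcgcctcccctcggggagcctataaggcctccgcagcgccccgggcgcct
LOXL1: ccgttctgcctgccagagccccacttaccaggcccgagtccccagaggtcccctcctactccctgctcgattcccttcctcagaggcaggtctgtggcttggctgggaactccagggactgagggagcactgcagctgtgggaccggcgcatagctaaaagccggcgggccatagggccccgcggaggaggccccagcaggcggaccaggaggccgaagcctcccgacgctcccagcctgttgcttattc
LOX holds 4 ACGTG matches, beginning 185, 116, 98 and 42 bases before the start, and 142 of the 14896 promoters (0.953%) hold at least 4. P4HA1 holds 1 ACGTG, and PLOD2 holds 2 ACGTG and 1 GCGTG. P4HA2, the other prolyl 4-hydroxylase subunit tested, holds neither core. The core ACGTG stands in 20.9% of all promoters and in 19.0% of those of the 42 genes, and GCGTG in 39.5% and 31.0%. Matches of this core on opposite strands can overlap, and each was counted.

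For LOX the libraries held 1.95, 2.63 and 1.69 CPM in DE, 13.9, 13.9 and 12.5 CPM in C75 and 3.45, 3.77 and 4.07 CPM in ETO. All C75 libraries of LOX lay above all others, and ETO lay above DE. LOX differed from DE by log2 2.69 in C75 (SE 0.15, adjusted p = 2.2e-17) and by log2 0.85 in ETO (SE 0.18, adjusted p = 6.3e-05). The exons of LOX overlap those of SRFBP1 on the opposite strand over 2.49% of their length. LOXL1, which cross-links elastin as well as collagen, was the lysyl oxidase that was lower in ETO. LOXL1 measured 16.1, 17.3 and 16.5 CPM in DE, 27.3, 24.7 and 26.3 CPM in C75 and 11.2, 10.4 and 10.2 CPM in ETO. Its groups did not overlap, with C75 highest. LOXL1 was 1.57-fold higher than DE in C75, log2 0.65 (SE 0.075, adjusted p = 3.3e-09), and 1.56-fold lower in ETO, log2 -0.65 (SE 0.084, adjusted p = 2.9e-08).

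LOXL2 stood at 56.7, 56.2 and 55.2 CPM in DE, 27.2, 26.7 and 25.7 CPM in C75 and 124, 123 and 123 CPM in ETO. LOXL2, which oxidises type IV collagen in basement membranes, was lowest in C75 and highest in ETO, the reverse of COL4A1 and COL4A2. Relative to DE, LOXL2 was 2.11-fold lower in C75, log2 -1.08 (SE 0.051, adjusted p = 4e-19), and 2.2-fold higher in ETO, log2 1.13 (SE 0.042, adjusted p = 1.1e-22). The levels of LOXL3 were 7.22, 8 and 7.3 CPM in DE, 5.24, 5.72 and 7.19 CPM in C75 and 14.1, 12.2 and 12.6 CPM in ETO. For LOXL4 the libraries held 5.22, 5.43 and 5.82 CPM in DE, 6.09, 5.94 and 6.76 CPM in C75 and 10.1, 9.24 and 13.9 CPM in ETO. LOXL3 and LOXL4 were highest in ETO, without overlap. LOXL3 was 1.73-fold higher in ETO than in DE, a log2 difference of 0.79 (SE 0.11, adjusted p = 1.1e-07). LOXL4 was 2.01-fold higher in ETO than in DE, a log2 difference of 1.01 (SE 0.13, adjusted p = 3e-08). In C75, LOXL4 was not called (0.19, adjusted p = 0.26), and the call of LOXL3 (-0.31, adjusted p = 0.035) was lost with DESeq2 (-0.31, adjusted p = 0.06) and without DE replicate 2 (-0.26, adjusted p = 0.11), C75 replicate 1 (-0.23, adjusted p = 0.16) or C75 replicate 2 (-0.28, adjusted p = 0.09). Exons on the opposite strand overlap 14.33% of LOXL3 (HTRA2) and 9.21% of LOXL1 (LOXL1-AS1).

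**Figure D4:**
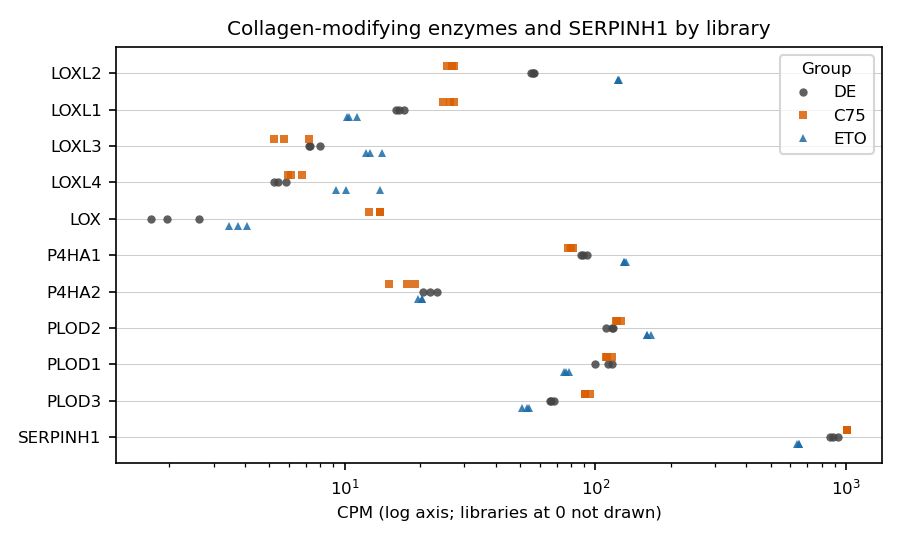
Level of the lysyl oxidases, the hydroxylases and SERPINH1 in every library, in CPM on a log axis, with DE as circles, C75 as squares and ETO as triangles. LOX is highest in C75 (12.5 to 13.9 CPM), LOXL2 is highest in ETO (123 to 124 CPM), and the hydroxylases lie closer together.

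The 2 catalytic subunits of prolyl 4-hydroxylase that were tested were both lower in C75. P4HA1 measured 87.4, 89.1 and 92.3 CPM in DE, 77.8, 80 and 81.2 CPM in C75 and 130, 133 and 130 CPM in ETO. Its groups did not overlap, with ETO highest. P4HA1 was 1.12-fold lower than DE in C75, log2 -0.17 (SE 0.041, adjusted p = 0.00058), and 1.46-fold higher in ETO, log2 0.55 (SE 0.039, adjusted p = 1.2e-14). P4HA2 stood at 23.3, 22 and 20.5 CPM in DE, 15, 19 and 17.7 CPM in C75 and 19.6, 20.4 and 20.4 CPM in ETO. P4HA2 was lower in every C75 library than in any DE library. P4HA2 had a log2 difference from DE of -0.35 in C75 (SE 0.082, adjusted p = 0.00043) and was not called in ETO, at a log2 difference from DE of -0.13 (SE 0.079, adjusted p = 0.16). With the GC and length correction P4HA2 was called in ETO as well (-0.18, adjusted p = 0.036). Exons of P4HA2-AS1 overlap 6.45% of P4HA2 on the opposite strand.

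Of the lysyl hydroxylases, PLOD1 acts on helical lysines, PLOD2 on the telopeptides that take part in cross-links, and PLOD3 also transfers glucose and is required for type IV collagen secretion. The levels of PLOD1 were 117, 112 and 99.9 CPM in DE, 111, 110 and 116 CPM in C75 and 78.6, 75.1 and 76.3 CPM in ETO. DE and C75 overlapped, and all ETO libraries were lower. PLOD1 was not called in C75, at a log2 difference from DE of 0.04 (SE 0.045, adjusted p = 0.48) and had a log2 difference from DE of -0.52 in ETO (SE 0.047, adjusted p = 6.6e-12). For PLOD2 the libraries held 116, 110 and 118 CPM in DE, 121, 122 and 126 CPM in C75 and 161, 166 and 161 CPM in ETO. PLOD2 was highest in ETO. PLOD2 was 1.42-fold higher in ETO than in DE, a log2 difference of 0.51 (SE 0.037, adjusted p = 3.4e-14). Its C75 call (0.1, adjusted p = 0.02) disappeared under upper-quartile scaling (0.05, adjusted p = 0.22) and without DE replicate 2 (0.07, adjusted p = 0.13), C75 replicate 1 (0.1, adjusted p = 0.058) or C75 replicate 3 (0.07, adjusted p = 0.15). The per-length ratio of PLOD2 to PLOD1 was 0.731 ± 0.0768 in DE, 0.76 ± 0.00781 in C75 and 1.48 ± 0.059 in ETO (SD, n = 3). The exact permutation p was 0.4 for C75 against DE and 0.1 for ETO against either group (adjusted p = 0.4 and 0.107).

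PLOD3 measured 68.6, 66.6 and 65.9 CPM in DE, 90.8, 90.6 and 95.3 CPM in C75 and 54.2, 51.1 and 53.6 CPM in ETO. PLOD3 was highest in C75 and lowest in ETO without overlap, in the order of the main type IV chains. PLOD3 was 1.37-fold higher than DE in C75, log2 0.46 (SE 0.043, adjusted p = 3.9e-11), and 1.27-fold lower in ETO, log2 -0.34 (SE 0.046, adjusted p = 5.2e-08). Exons of ZNHIT1 overlap 7.56% of PLOD3 on the opposite strand. SERPINH1 stood at 864, 929 and 885 CPM in DE, 1009, 1005 and 1010 CPM in C75 and 651, 637 and 650 CPM in ETO. SERPINH1, the collagen chaperone, had the same order of groups and no overlap. Relative to DE, SERPINH1 was 1.13-fold higher in C75, log2 0.18 (SE 0.03, adjusted p = 4.1e-06), and 1.38-fold lower in ETO, log2 -0.47 (SE 0.03, adjusted p = 8.2e-16). Per length SERPINH1 reached 557 ± 17.0 TPM in DE, 591 ± 4.57 TPM in C75 and 408 ± 5.68 TPM in ETO (SD, n = 3).

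In the direct comparison of the inhibitors, where 39.9% of all genes were higher and 39.2% lower in C75, 19 of the 49 genes were higher and 24 lower, so that most members were called, as were most genes. Those not called were COL11A2, COL14A1, COL19A1, COL22A1, COL6A1 and COL9A1. Of those called, COL6A6 (log2 -0.74, adjusted p = 0.033) was lost with DESeq2 (-0.76, adjusted p = 0.06) and the GC and length correction (-0.52, adjusted p = 0.14), and on leaving out C75 replicate 1 (-0.59, adjusted p = 0.13), C75 replicate 3 (-0.62, adjusted p = 0.11), ETO replicate 1 (-0.63, adjusted p = 0.11) or ETO replicate 3 (-0.71, adjusted p = 0.069). P4HA2 (-0.22, adjusted p = 0.015) was lost without C75 replicate 1 (-0.14, adjusted p = 0.14). COL6A1 (-0.06, adjusted p = 0.099) gained a call with median-of-ratios scaling (-0.07, adjusted p = 0.033), upper-quartile scaling (-0.12, adjusted p = 0.0005) and a filter of at least 5 CPM (-0.1, adjusted p = 0.0043), with DESeq2 (-0.07, adjusted p = 0.036), with 6 libraries (-0.07, adjusted p = 0.027) and with the GC and length correction (-0.4, adjusted p = 2.4e-16). It also gained one without DE replicate 2 (-0.07, adjusted p = 0.038) or C75 replicate 3 (-0.09, adjusted p = 0.023). COL11A2 gained a call with the GC and length correction (-0.71, adjusted p = 0.0066).

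Genes that act with collagens were counted by function. These counts stand beside 31.2% of all genes higher and 31.9% lower in C75, and 34.7% higher and 35.3% lower in ETO, with a median of 0.00 in each comparison. Of 18 genes of procollagen folding, modification and export, all tested, 9 rose and 4 fell in C75 relative to DE (median log2 0.12), and 8 were higher and 6 lower in ETO (median 0.04). P4HB, the disulfide isomerase that is the beta subunit of prolyl 4-hydroxylase, was at 752 ± 9.96 CPM in DE, 1086 ± 30.1 CPM in C75 and 610 ± 8.26 CPM in ETO (SD, n = 3; log2 0.53, adjusted p = 3.2e-17, and -0.3, adjusted p = 4.1e-11). PPIB, a prolyl isomerase of the 3-hydroxylation complex, differed from DE by log2 0.36 in C75 (adjusted p = 9.9e-11) and -0.49 in ETO (adjusted p = 3.6e-14). In ETO the smallest p-values were those of FKBP14, an isomerase that binds type III collagen (log2 1.18, adjusted p = 9.6e-20), and P3H2, a prolyl 3-hydroxylase (-0.59, adjusted p = 2.1e-18).

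Of the 9 genes that trim procollagen 8 were tested, with 1 higher and 5 lower in C75 (median log2 -0.43) and 5 higher and 2 lower in ETO (median 0.57). PCOLCE and PCOLCE2, enhancers of the C-proteinase, fell in C75 (log2 -0.54, adjusted p = 4.3e-06, and -0.32, adjusted p = 0.00035). In ETO, PCOLCE2 fell (-0.93, adjusted p = 7.1e-13) and TLL2, a proteinase of the BMP1 family, rose (2.73, adjusted p = 5.1e-10) from 0.465 to 3.15 CPM. TLL2 passed the low-count filter only through its ETO counts. Its place among the 5 lower in C75 and the 5 higher in ETO is therefore partly set by the filter. Of the 14 fibril-associated proteoglycans and glycoproteins 7 were tested, with 1 higher and 5 lower in C75 (median -0.63) and 4 higher and 2 lower in ETO (median 1.22). FN1 (fibronectin) fell in C75 (-0.63, adjusted p = 3.1e-17) and in ETO (-0.32, adjusted p = 3.3e-10). THBS2, a thrombospondin that affects fibril form, was at 4.97 ± 0.399 CPM in DE, 0.553 ± 0.105 CPM in C75 and 31.3 ± 0.906 CPM in ETO (SD, n = 3; log2 -3.14, adjusted p = 2.7e-15, and 2.66, adjusted p = 2.7e-23). THBS1 rose in ETO (1.62, adjusted p = 1.3e-21). POSTN, among the 5 lower in C75 and the 4 higher in ETO, likewise passed the filter only through ETO.

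Of 11 collagen receptors 9 were tested, with 2 higher and 4 lower in C75 (median log2 -0.15) and 5 higher and 1 lower in ETO (median 0.81). ITGB1, the beta subunit shared by the collagen-binding integrins, was at 514 ± 15.9 CPM in DE, 382 ± 3.44 CPM in C75 and 902 ± 19.2 CPM in ETO (SD, n = 3; log2 -0.43, adjusted p = 4.8e-14, and 0.81, adjusted p = 1.9e-22). ITGA2, its partner in a receptor for type I collagen, differed by log2 -2.72 (adjusted p = 9.2e-10) and 2.47 (adjusted p = 9.9e-17). Of 16 genes of collagen degradation 12 were tested, with 6 higher and 4 lower in C75 (median 0.05) and 4 higher and 6 lower in ETO (median -0.04). These counts and medians mix enzymes with 4 inhibitors of metalloproteinases. Of the inhibitors, TIMP1 (0.58) and TIMP3 (0.32) were among the genes higher in C75 and TIMP2 (-0.24) and TIMP4 (-1.63) among those lower, and in ETO TIMP4 was higher (2.85) and TIMP1 (-0.48) and TIMP2 (-0.19) lower. The 8 tested enzymes alone gave 4 higher and 2 lower in C75, and 3 higher and 4 lower in ETO. PEPD, which splits the proline dipeptides left from collagen, rose in C75 (0.67, adjusted p = 5.3e-15). MMP2, a gelatinase, fell in C75 (-0.78, adjusted p = 3.4e-13) and rose in ETO (1.09, adjusted p = 1.2e-19), while MMP14, the membrane proteinase that activates it, fell in ETO (-0.41, adjusted p = 2.4e-14).

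All 9 hypoxia-inducible factor regulators were tested, with 3 higher and 4 lower in C75 (median log2 -0.05) and 3 higher and 4 lower in ETO (median 0.05). With 9 genes, these counts are near the 31.2% and 31.9% of all genes in C75 and the 34.7% and 35.3% in ETO, and are no result about the regulators as a list. ARNT, the shared partner of the factors, fell in C75 (-0.23, adjusted p = 5.7e-05), as did HIF3A (-0.31, adjusted p = 0.00023). In ETO, HIF3A fell (-0.83, adjusted p = 3.4e-12), ARNT fell as well (-0.27, adjusted p = 3.2e-06) and EPAS1 rose (1.64, adjusted p = 1.1e-10).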

How the data were processed

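RNA of 9 libraries was measured, 3 per group. The deposited table holds the authors' raw counts, 1 row for each gene symbol, beside a gene length in bases, per the file headers. The submitters' processing notes list HISAT2 2.1.0, featureCounts 1.6.4 and the build GRCh38, with no role stated. For the annotation release, the strand setting and multi-mapping reads nothing is stated in the sources used here. The deposited lengths of all 56 genes equal the merged exons of GENCODE 29.

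From the deposited counts, edgeR 4.0.16 in R 4.3.3 kept 14177 genes (filterByExpr by group), scaled libraries by TMM and ran the quasi-likelihood test in 1 fit of the 9 libraries by group. The fit was tested on simulated data. P-values were adjusted by Benjamini-Hochberg over all genes tested, with a threshold of 0.05, and the 2-fold rule added an absolute log2 difference of at least 1. TPM was computed from the counts and lengths. Merged exons can be longer than the transcripts expressed, so orders, shares and ratios of genes per length depend on the annotation.

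Group ratios were compared with a two-sided exact permutation test. All genes of the rule are accounted for, with each library's value where the mean was at least 5 CPM or a call against DE reached 2-fold. From the function lists the 2 genes with the smallest p in each comparison with DE were named. The members and the lists of functions and markers were chosen with earlier results of these data known. Alternatives were median-of-ratios and upper-quartile scaling, no filter, a mean of at least 5 CPM, a replicate block, a correction for GC content and gene length, a fit of the 6 libraries compared, DESeq2 1.42.0 and leaving out each library. Promoters came from RefSeq (GRCh38.p14), which had an entry for 42 of the 56 genes.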

Additional observations from a re-analysis of the deposited data

How the results depend on the processing

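Over 17 alternatives the 147 member comparisons gave 2451 values, of which 2347 kept their direction and side of the threshold, 58 lost a call, 23 gained one and 23 changed sign. A sign change was counted only as such, also where the call was lost, as for COL9A3 between the inhibitors. The counts of genes called were within 1.5 times their value except at 2-fold. With a mean of at least 5 CPM, which left 35 of the genes, C75 against DE had 2 at least 2-fold higher and 5 lower, 7 were higher in ETO than in DE, and 8 were lower in C75 than in ETO. A fit of the 6 libraries compared tested 43 genes in C75 against DE and called 7 at least 2-fold lower.

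Leaving out 1 library gave, in C75 against DE, 14 to 16 genes higher and 21 to 24 lower, 22 to 25 higher and 14 to 16 lower in ETO than in DE, and 19 higher and 22 to 25 lower in C75 than in ETO. At 2-fold the counts were 4 and 9 to 11, 11 to 13 and 3, and 8 to 9 and 15 to 16.

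Sign changes of C75 against DE were PLOD1, COL9A1 and COL23A1. PLOD1 gave -0.01 with upper-quartile scaling and -0.06 with the GC and length correction, and COL9A1 gave -0.02 with each. Leaving out 1 library gave -0.04 to 0.09 for PLOD1, -0.05 to 0.02 for COL23A1 and -0.07 to 0.09 for COL9A1. In C75 against ETO the GC and length correction gave 0.07 for COL14A1, -0.08 for COL22A1 and -0.04 for COL9A3, and in ETO against DE -0.02 for COL6A6. COL6A1 in ETO against DE was -0.01 with no filter and 0.00 with the replicate block or 6 libraries, and -0.03 to 0.02 without 1 library. The cause was not tested.

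Libraries with the same number did not deviate together (correlations of -0.082 to 0.116), and in 7 of 18 cases the best match in another group had the library's own number. With the replicate block the counts were 16 and 24, 24 and 16, and 19 and 24, as without it. Depth limits genes of few counts, COL12A1, COL6A3, COL5A3, COL17A1 and COL24A1 in C75 among them.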
